A study of Mus musculus with 8 samples.

Results

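The genes described here are 27 genes of GABA and glycine transmission, chosen by name from the 55291 genes of the raw count table. They comprise 18 GABA genes, 7 glycine genes and the genes of 2 proteins that serve both kinds of synapse, and 26 of the 27 had enough counts to be tested among 19470 genes. The study asked how lumbar spinal cord RNA of a mouse model of amyotrophic lateral sclerosis differs when microglia lack *Ager*, the gene of RAGE, which binds advanced glycation end products and other danger signals. Polyadenylated RNA was sequenced from the whole lumbar spinal cord of 8 male mice of C57BL/6J background, given as strain C57BL/6 in the sample characteristics. All 8 carried the SOD1G93A transgene, a mutant human superoxide dismutase that causes motor neuron disease, and 1 Cx3cr1 Cre allele, whose recombinase is active after tamoxifen in *Cx3cr1*-expressing cells, which include microglia but also other cells of that lineage. The 4 *Ager*-deleted mice (SOD1G93A Ager fl/fl Cx3cr1 Cre/+, in order E1776, E5231, E5248, E5568) had floxed *Ager* alleles, and the 4 Cre-expressing controls (SOD1G93A Ager+/+ Cx3cr1 Cre/+, in order E5386, E5642, E6578, E6732) had unfloxed ones. Both genotypes received tamoxifen, 0.2 µg daily in 5 injections at 12 weeks of age by the sample labels, where the text of the study puts it a few days later. The age in the labels is 120 days for every mouse, whereas the text of the study places this tissue at the humane endpoint, so the stage of disease is uncertain. Mice without the transgene were not analysed here, so the values say nothing of how the disease itself alters these genes.

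In the spinal cord, inhibition is carried by both GABA and glycine, often released from the same terminals of interneurons. GABA is made from glutamate by glutamate decarboxylases, both transmitters are loaded into vesicles by a shared transporter, and they open chloride channels assembled from several subunits, the GABA-A and glycine receptors, while GABA-B receptors act through G proteins. Receptors are held at the synapse by gephyrin and neuroligin 2, transmitter is cleared by transporters of neurons and astrocytes, and loss of this inhibition onto motor neurons has long been studied in amyotrophic lateral sclerosis.

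One cluster of GABA-A receptor genes is shown in sequence because it holds *Gabra2*, the only gene of the set with an unadjusted p under 0.05 between the genotypes, while its neighbours on either side did not share its values. On chromosome 5 of GRCm38, *Gabrg1* (70751047 to 70842617, minus strand) is followed after 114979 bp by *Gabra2* (70957597 to 71095849, minus strand), then after 473899 bp by *Gabra4* (71569749 to 71658308, minus strand), whose first 196 bp are shared with *Gabrb1* (71658113 to 72149037, plus strand). The RefSeq promoter windows of these genes are 300 bases long, with most bases upstream of the RefSeq start and the rest downstream. On GRCm38.p6 the windows shown lie at chr5:70842568-70842867 (minus) for *Gabrg1*, chr5:71095800-71096099 (minus) for *Gabra2*, chr5:71658259-71658558 (minus) for *Gabra4* and chr5:71657671-71657970 (plus) for *Gabrb1*. They are printed from 5′ to 3′ on the strand of the gene, and capitals mark GGGCGG or its reverse complement CCGCCC, the core letters of a GC box.
Gabrg1: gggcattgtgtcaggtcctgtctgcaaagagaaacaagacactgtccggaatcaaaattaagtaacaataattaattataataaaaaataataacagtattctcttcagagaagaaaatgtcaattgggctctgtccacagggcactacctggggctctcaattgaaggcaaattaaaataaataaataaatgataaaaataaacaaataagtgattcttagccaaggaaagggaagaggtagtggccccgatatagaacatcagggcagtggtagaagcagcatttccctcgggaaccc
Gabra2: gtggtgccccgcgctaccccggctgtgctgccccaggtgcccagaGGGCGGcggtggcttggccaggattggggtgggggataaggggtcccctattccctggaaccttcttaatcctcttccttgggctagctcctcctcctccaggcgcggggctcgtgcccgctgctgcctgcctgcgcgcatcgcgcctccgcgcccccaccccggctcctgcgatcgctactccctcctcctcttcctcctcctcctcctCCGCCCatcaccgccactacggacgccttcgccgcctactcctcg
Gabra4: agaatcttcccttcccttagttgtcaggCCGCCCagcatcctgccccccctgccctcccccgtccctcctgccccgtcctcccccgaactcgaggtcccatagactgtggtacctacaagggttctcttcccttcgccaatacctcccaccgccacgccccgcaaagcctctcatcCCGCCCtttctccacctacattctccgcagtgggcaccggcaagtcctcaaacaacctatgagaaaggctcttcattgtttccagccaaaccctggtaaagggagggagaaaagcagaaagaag
Gabrb1: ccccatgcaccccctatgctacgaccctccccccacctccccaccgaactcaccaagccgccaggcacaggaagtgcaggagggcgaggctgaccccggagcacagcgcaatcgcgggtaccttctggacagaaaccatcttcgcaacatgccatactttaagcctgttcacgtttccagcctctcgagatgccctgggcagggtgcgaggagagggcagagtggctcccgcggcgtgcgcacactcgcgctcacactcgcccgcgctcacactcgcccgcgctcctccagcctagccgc
The *Gabra2* window was the richest of the 4 in G and C, at 70.0%, with 25 CG pairs and 2 matches of GGGCGG. The *Gabrg1* window held 38.3% G and C, 3 CG pairs and no match, that of *Gabra4* 58.7%, 12 CG pairs and 2 matches, and that of *Gabrb1* 66.0%, 25 CG pairs and no match. A further *Gabrb1* window, at chr5:71699682-71699981 (plus) and not printed, held 50.3% G and C, 9 CG pairs and no match. Of the 27 genes, 25 had a window (*Gabrd* and *Glra1* had none in the table), and 16 of these held GGGCGG on either strand. The share over all 32851 windows was 35.7%. Some genes had several windows and were counted if any matched, whereas the share over all windows counts each window. The counts of genes and these shares are therefore not on the same footing, here and for the motifs that follow. The TATA box letters TATAAA were found in the windows of 4 genes, *Gad1*, *Gabra3*, *Gabrb2* and *Glra2* (13.6% of all windows), and TGACGTCA, the full cyclic AMP response element, in 0 (1.79% of all windows). A match describes these letters and is not evidence of binding.

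Total counts ranged from 31148047 to 40324897 per mouse, so that 3 counts, the smallest amount taken as detectable, correspond to between 0.0729 and 0.0975 CPM (counts scaled to a fixed library total), and this limit takes in counting error alone. *Ager* itself was between 0.889 and 1.51 CPM in the *Ager*-deleted mice and between 1.53 and 2.41 CPM in the controls, a log2 fold change of -0.81 ± 0.22 (SE, adjusted p = 0.252, edgeR's exact test) in RNA from all cells of the tissue. Defining genes of neurons, astrocytes, oligodendrocytes, microglia and motor neurons and the lumbar genes *Hoxa10*, *Hoxc10* and *Hoxd10* were detected in every mouse. Of 5 markers of dorsal root ganglion neurons, *Scn10a* and *Mrgprd* were at or under 3 counts. The others were above 3 counts in every mouse: *Prph* had 1002 to 2011 counts, *Avil* 41 to 128 and *Trpv1* 7 to 14. Some control libraries stood apart: the summed level of 12 skeletal muscle markers was 1086 CPM in E5386 and 1696 CPM in E5642 against 131 to 158 CPM in the other mice, and that of 5 liver markers was 551 CPM in E6732 against 1.31 to 2.53 CPM elsewhere. With a skeletal muscle score as covariate in the quasi-likelihood test 0 of the genes described here were called, and the part of the liver markers in the results was not tested beyond leaving out E6732.

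None of the 26 tested genes differed between the genotypes at the threshold (adjusted p under 0.05, edgeR's exact test). This left 0 of 17 GABA genes, 0 of 7 glycine genes and 0 of 2 scaffold genes, against 0.0719% of all genes tested. The quasi-likelihood test of edgeR also called 0, against 0.00514% of all genes. An unadjusted p under 0.05 was reached by 1 of the 26, *Gabra2*, in either test, against 4.26% of all genes with the former and 6.71% with the latter. In the exact test 1 gene was higher and 0 were lower in the *Ager*-deleted mice, against 1.2% and 3.06% of all genes. Complete separation of the mice by genotype occurred for 0 of the 26, against 3.88% of all genes. Fold changes, given throughout as *Ager*-deleted over control on the log2 scale, were above 0 in 12 and below 0 in 5 of the GABA genes and above 0 in 4 and below 0 in 3 of the glycine genes, where 52% of all genes were above 0. The median was 0.03 for the GABA genes (range -0.19 to 0.61), 0.05 for the glycine genes (range -0.17 to 0.13) and 0.01 for all genes tested. Without the controls E5386 and E5642 the median of the GABA genes was 0.01 and that of the glycine genes fell below 0, to -0.11, and with the muscle covariate they were 0.03 and -0.10. Without E6732, the control with liver markers, they were 0.05 and 0.05, and of the 26 genes *Gabre* alone turned below 0, to -0.01. Without the *Ager*-deleted mouse E5248 both medians fell below 0, to -0.04 and -0.04, where that of all genes was 0.01.

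The spread between mice also sets how large a difference could have been present. The 95% interval of the fold change from the quasi-likelihood fit lay within 1.5-fold in either direction for 23 of the 26 genes, 15 of GABA, 6 of glycine and both scaffold genes, and within 2-fold for 25. The 3 genes that reached beyond 1.5-fold were *Gabra2*, *Gabrd* and *Glra3*, and *Gabra2* alone reached beyond 2-fold. These are bulk samples, in which fewer cells of a type and less RNA per cell cannot be told apart.

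**Figure D1:**
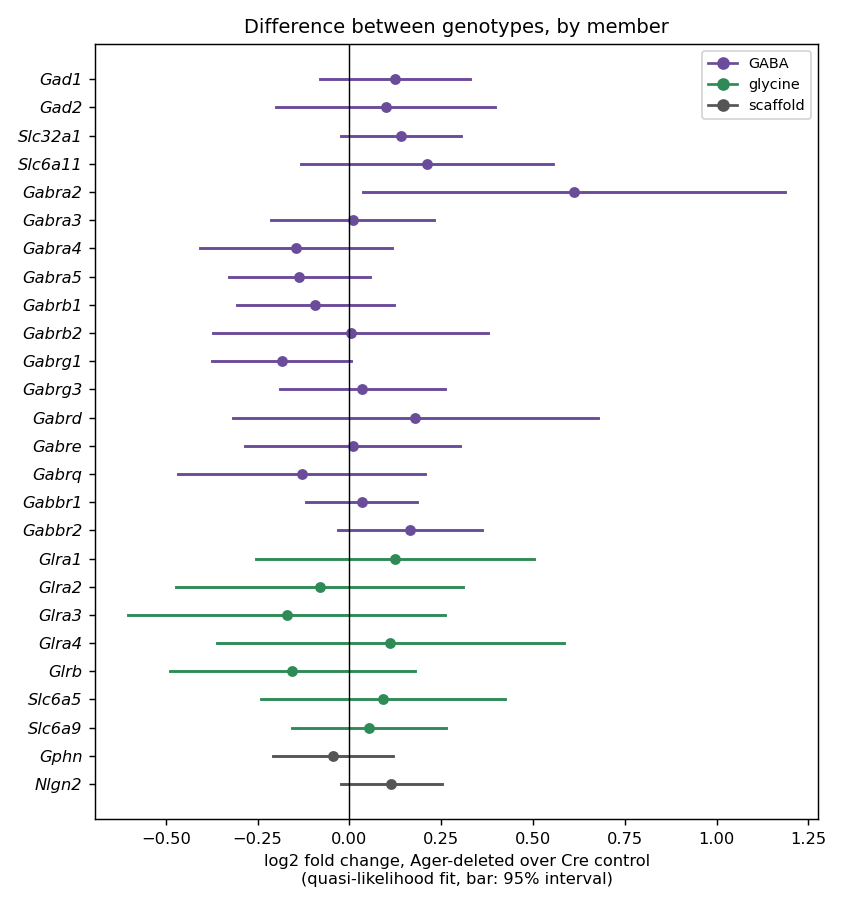
Log2 fold change of each of the 26 tested genes (horizontal axis, *Ager*-deleted over Cre-expressing control; point, quasi-likelihood estimate; bar, 95% interval), coloured by GABA, glycine and scaffold genes. The bars of all genes but *Gabra2*, whose interval runs from 0.04 to 1.19, cross 0.

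For GABA synthesis and loading, *Slc32a1*, the vesicular transporter shared by GABA and glycine, had the highest level per length, 35.4 CPM per kb of exon over all mice. It measured 108, 91.9, 106 and 109 CPM in the *Ager*-deleted mice and 86.3, 93.2, 103 and 94.6 CPM in the controls, with the mice in the order named at the outset, here and below. Every *Ager*-deleted mouse but E5231 lay above all controls, and E5231 lay among them. The log2 fold change was 0.14 ± 0.074 (SE, adjusted p = 1, exact test, p = 0.114, exact two-sided permutation test, for which 4 mice against 4 allow no p below 0.0286). The decarboxylases *Gad1* (GAD67, which makes most of the basal GABA) and *Gad2* (GAD65, which works at terminals) had log2 fold changes of 0.12 and 0.10. Without E5248 that of *Gad1* was 0.05 and that of *Gad2* turned below 0, to -0.04. *Gad1* ranged from 150 to 204 CPM in the *Ager*-deleted mice but only from 158 to 168 CPM in the controls, and *Gad2* from 101 to 159 CPM against 104 to 129.6 CPM. An antisense gene, *Gm14205*, overlaps exons of *Slc32a1*, and genes on the opposite strand also overlap exons of *Gabra4*, *Gabrb1*, *Gabra5*, *Glra1*, *Slc6a9* and *Gphn*. The strand setting of the counting is not stated, so reads of these partners may not have been told apart.

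Among the alpha subunits, which shape the kinetics and drug response of GABA-A receptors, *Gabra2* was the only gene of the set with an unadjusted p under 0.05. It encodes the alpha2 subunit, typical of spinal dorsal horn and motor neurons. Its level was 53.6, 140.1, 57.3 and 82.8 CPM in the *Ager*-deleted mice and 57.2, 57.7, 52.0 and 51.5 CPM in the controls. E5231 and E5568 lay above every control, E5248 within the control range near its top and E1776 near its middle, so the genotypes overlapped. Relative to the control mean, *Gabra2* was 2.57 in E5231, 1.52 in E5568, 1.05 in E5248 and 0.982 in E1776. The group means were 83.5 ± 39.9 CPM and 54.6 ± 3.34 CPM (SD, n = 4 and 4), and the coefficient of variation was 47.9% against 6.11%. The log2 fold change of 0.61 ± 0.26 (SE, 95% interval 0.04 to 1.19) had by edgeR's exact test an unadjusted p of 0.0212, which was 0.983 once adjusted. The adjusted p was 0.742 by the quasi-likelihood test, and the exact permutation test gave 0.143. Its size rested largely on the mouse E5231: without it the log2 fold change was 0.24 with an unadjusted p of 0.121 and an adjusted p of 1 (edgeR's exact test), and leaving out any other single mouse gave 0.59 to 0.78. The unadjusted p of edgeR's exact test also passed 0.05 without E6578 (0.0549), without E6732 (0.0519) and without both E5386 and E5642 (0.0531).

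The neighbours of *Gabra2* on chromosome 5, whose promoters are printed above, did not share the high values. In E5231 and E5568, the levels relative to the control mean were 0.985 and 0.812 for *Gabrg1*, 0.859 and 0.907 for *Gabra4*, and 0.840 and 0.821 for *Gabrb1*. Over the other 25 tested genes and all 8 mice, this ratio ran from 0.668 (*Glra3* in E5231) to 1.49 (*Gabrd* in E1776), so no other gene of the set reached the ratios of *Gabra2* in these mice. The summed level of 7 neuron markers was 3525 CPM in E5231, the lowest of the 8 mice, and 4333 CPM in E5568, the third highest. Not every marker in that sum was low in E5231: *Stmn2* was 276 CPM there, against 234 to 301 CPM in the controls.

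**Figure D2:**
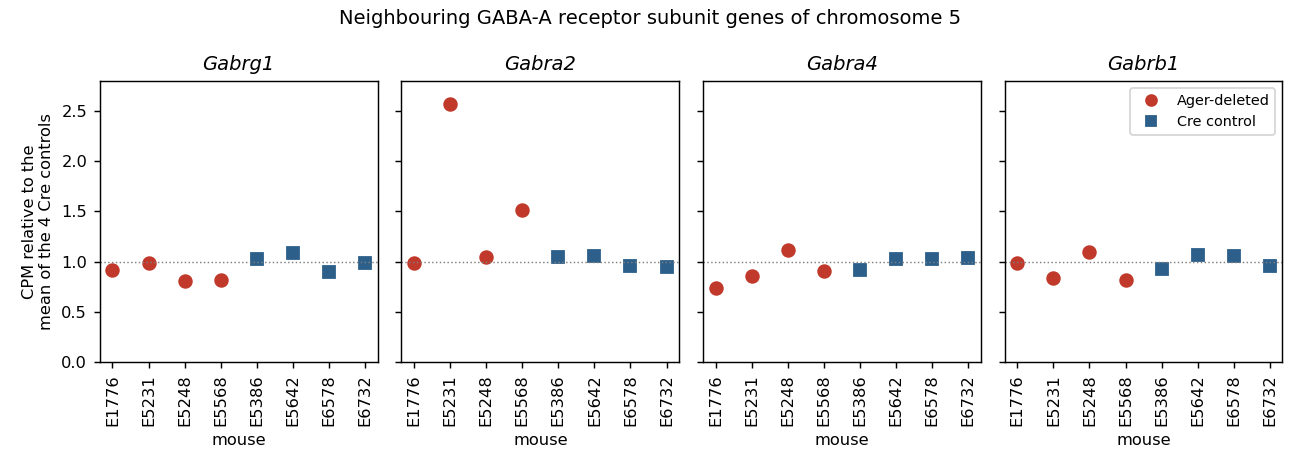
CPM relative to the mean of the 4 Cre-expressing controls (vertical axis) in each mouse (horizontal axis) for the chromosome 5 genes *Gabrg1*, *Gabra2*, *Gabra4* and *Gabrb1*, with *Ager*-deleted mice as circles and controls as squares. *Gabra2* stands at 2.57 in E5231 and 1.52 in E5568, while the other 3 genes stay at or below 1.12 in every mouse.

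Of the alpha subunit genes listed here, the highest level per length was that of *Gabra3*, at 28.7 CPM per kb, ahead of *Gabra5* (12.8), *Gabra2* (9.04) and *Gabra4* (2.84). *Gabra3* measured 99.3, 98.7, 132 and 122 CPM in the *Ager*-deleted mice and 105, 108, 121 and 117 CPM in the controls. The *Ager*-deleted mice fell on either side of the controls, E1776 and E5231 below all of them and E5248 and E5568 above, and the log2 fold change was 0.01 ± 0.10 (SE, adjusted p = 1, exact test, permutation p = 1). *Gabra4*, a partner of the delta subunit outside synapses, had a log2 fold change of -0.15, and *Gabra5*, found mostly outside synapses, one of -0.14. *Gabra6*, known from cerebellar granule cells, had between 0 and 2 counts in every mouse, at or under the floor, and no fold change is given. Of the alpha subunits listed here, *Gabra2* made up 13.7% ± 1.38 of the summed level per length in the controls and 19.8% ± 8.70 in the *Ager*-deleted mice (SD, n = 4 and 4), again highest in E5231 at 32.4%.

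*Gabrb1*, of the beta subunit genes listed the higher per length (8.65 CPM per kb), measured 122, 104, 136 and 102 CPM in the *Ager*-deleted mice and 115, 131, 130.4 and 118 CPM in the controls. E5231 and E5568 were below all controls and E5248 above them, and the log2 fold change was -0.09 ± 0.096 (SE, adjusted p = 1, exact test, permutation p = 0.400). Its exons overlap those of *Gabra4*, on the opposite strand. *Gabrb2*, another beta subunit, ranged from 16.52 to 28.7 CPM over all mice with a log2 fold change of 0.00.

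*Gabrg1* had the highest level per length of the gamma subunits listed (6.72 CPM per kb). The gamma subunit is needed for receptors to gather at synapses. It measured 51.4, 55.4, 45.4 and 45.7 CPM in the *Ager*-deleted mice and 58.0, 61.3, 50.5 and 55.2 CPM in the controls. E5248 and E5568 lay below all controls and the other *Ager*-deleted mice within their range, and the log2 fold change of -0.19 ± 0.085 was the lowest of the 26 (adjusted p = 1, unadjusted p = 0.0826, exact test, permutation p = 0.143). *Gabrg3* had a log2 fold change of 0.04. It lies beside *Gabra5* on chromosome 7, 20483 bp away, and over all mice *Gabrg3* ranged from 15.7 to 21.9 CPM and *Gabra5* from 31.5 to 42.6 CPM.

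The less common delta, epsilon and theta subunits were all low. *Gabrq* (theta) was the highest per length, at 1.69 CPM per kb, and measured 6.71, 8.73, 10.3 and 8.79 CPM in the *Ager*-deleted mice and 10.8, 7.69, 8.74 and 10.5 CPM in the controls. The genotypes overlapped widely, with the lowest value in E1776 and the highest in E5386 (log2 fold change -0.13 ± 0.15, SE, adjusted p = 1, exact test, permutation p = 0.457). *Gabre* (epsilon) ranged from 2.54 to 3.31 CPM with a log2 fold change of 0.01. *Gabrd* (delta), at 17 to 35 counts per mouse, had a log2 fold change of 0.18 with an interval of -0.32 to 0.68, which is too wide to show a modest change at this depth.

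The GABA-B receptor is an obligate pair of *Gabbr1*, which binds GABA, and *Gabbr2*, which couples to the G protein. *Gabbr1* was among the most abundant of the set per length (63.1 CPM per kb) and measured 508, 453, 522 and 499.6 CPM in the *Ager*-deleted mice and 500.5, 468, 485 and 484 CPM in the controls. E5231 was the lowest and E5248 the highest of all mice, and the log2 fold change was 0.03 ± 0.068 (SE, adjusted p = 1, exact test, permutation p = 0.543). *Gabbr1* is on chromosome 17 (37045966 to 37075067), 2445029 bp from the floxed gene *Ager*. *Gabbr2* ranged from 107 to 136 CPM in the *Ager*-deleted mice and from 99.6 to 120.3 CPM in the controls, with a log2 fold change of 0.16 (adjusted p = 1, exact test).

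The glycine receptor of the adult spinal cord is built mainly from alpha1 and beta subunits, and the beta subunit binds gephyrin. *Glrb*, the beta subunit gene and the most abundant of these per length (41.1 CPM per kb), measured 163, 136, 237 and 188 CPM in the *Ager*-deleted mice and 177, 193, 218 and 218.5 CPM in the controls. The *Ager*-deleted mice spanned the controls, E1776 and E5231 below all of them and E5248 above, and the log2 fold change was -0.16 ± 0.15 (SE, adjusted p = 1, exact test, permutation p = 0.343). *Glra1* ranged from 62.2 to 104 CPM in the *Ager*-deleted mice and from 62.8 to 95.7 CPM in the controls (log2 fold change 0.13), while *Glra2*, the embryonic subunit, and *Glra3*, known from the superficial dorsal horn, had log2 fold changes of -0.08 and -0.17. *Glra4* was low, between 29 and 47 counts per mouse. The values of *Glrb* and *Glra3* depended on E5248, the highest mouse for both. Without it the log2 fold change of *Glrb* was -0.31 (unadjusted p = 0.0203, adjusted p = 0.593, edgeR's exact test) and that of *Glra3* -0.40 (unadjusted p = 0.0166, adjusted p = 0.555, edgeR's exact test), while *Glra1* and *Slc6a5* turned below 0, to -0.01 and -0.04. Per length, *Glra1* made up 86.3% ± 2.43 of the 4 alpha subunits in the *Ager*-deleted mice and 84.3% ± 1.69 in the controls, *Glra2* 7.96% against 8.98%, *Glra3* 4.34% against 5.34% and *Glra4* 1.42% against 1.35%. Without the controls E5386 and E5642, the fold changes of *Glra1*, *Glra4* and the glycine transporter *Slc6a5* turned below 0, as did those of *Gabra3*, *Gabrb2* and *Gabrg3*, and none was called.

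*Slc6a11*, the astrocyte GABA transporter GAT-3, was the most abundant of all 27 genes per length (65.4 CPM per kb). It measured 301, 262, 449 and 406 CPM in the *Ager*-deleted mice and 326, 272, 316 and 311 CPM in the controls. E5248 and E5568 lay above every control, E5231 below every control and E1776 between, and the log2 fold change was 0.21 ± 0.15 (SE, adjusted p = 1, exact test, permutation p = 0.429). Without E5248 it was 0.08, and without E5231 it was 0.33 (unadjusted p = 0.0234, adjusted p = 0.940, edgeR's exact test). The 6 astrocyte markers summed to 11428 and 12674 CPM in E5248 and E5568, the lowest of the 8 mice, so this astrocyte gene was high where that sum was low. *Gfap* made up most of that sum (6643 and 8429 CPM). Not every marker was low there: *Slc1a3* was 249 and 235 CPM, against 216 to 264 CPM in the controls. *Slc6a5* (GlyT2, which refills glycinergic terminals) ranged from 266 to 448 CPM in the *Ager*-deleted mice and from 299 to 391.5 CPM in the controls, with a log2 fold change of 0.09. *Slc6a9* (GlyT1, mostly glial) ranged from 114 to 143 CPM and from 102 to 132 CPM, with a log2 fold change of 0.05.

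Of the scaffold genes, *Nlgn2*, an adhesion protein of inhibitory synapses, was the higher per length (27.5 CPM per kb) and measured 179, 163, 165 and 153 CPM in the *Ager*-deleted mice and 154, 145, 152 and 159 CPM in the controls. All *Ager*-deleted mice but E5568 were above every control, and the log2 fold change was 0.11 ± 0.062 (SE, adjusted p = 1, exact test, permutation p = 0.0857). *Gphn*, which encodes gephyrin, ranged from 62.1 to 74.4 CPM and from 67.7 to 78.9 CPM, with a log2 fold change of -0.05.

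**Figure D3:**
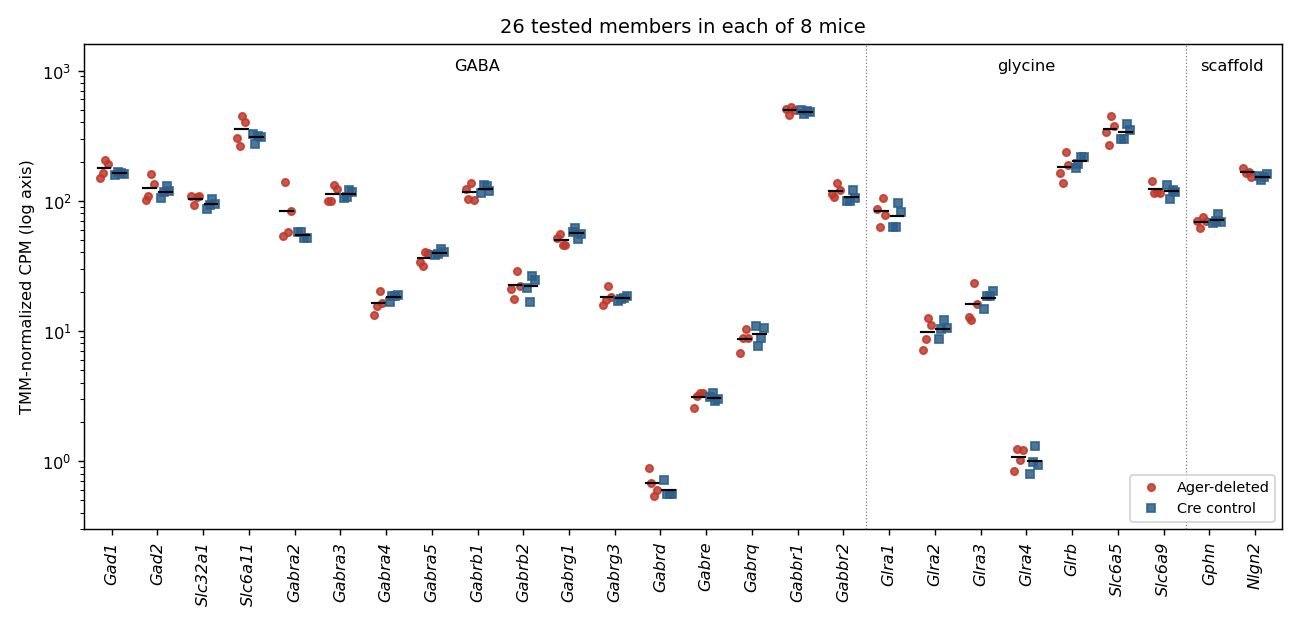
TMM-normalized CPM (vertical log axis) of the 26 tested genes in each of 8 mice, with *Ager*-deleted mice as circles, Cre-expressing controls as squares and group means as black bars. The genotypes overlap for every gene, and the 2 circles of *Gabra2* in E5231 (140.1 CPM) and E5568 (82.8 CPM) stand above its controls.

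**Figure D4:**
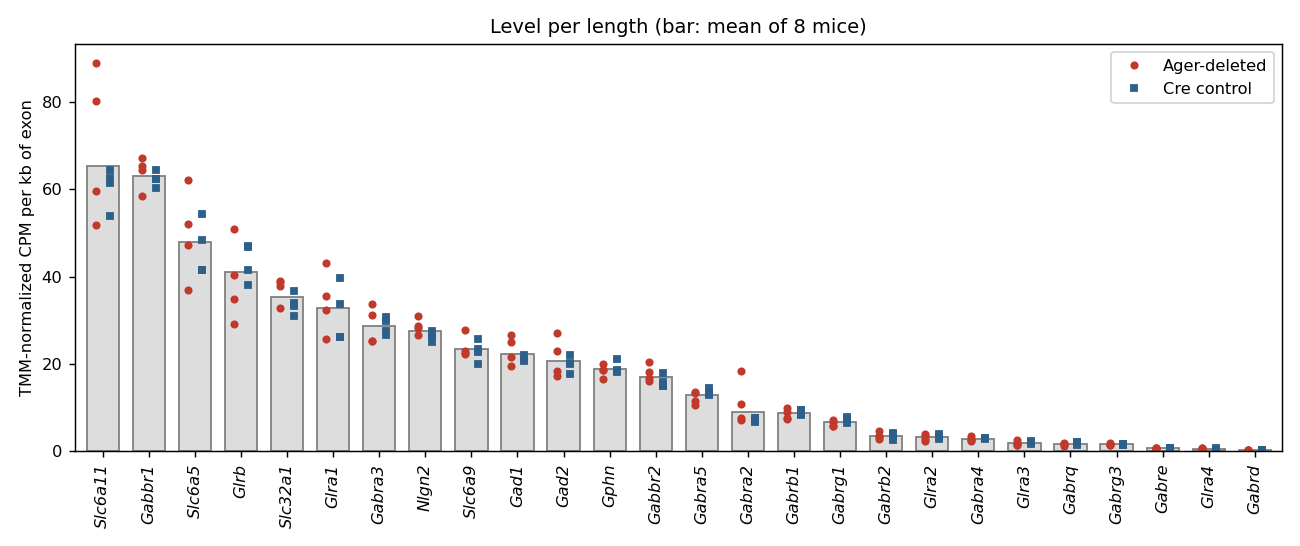
Level per length (vertical axis, TMM-normalized CPM per kb of exon) of the 26 tested genes, ordered by the mean of 8 mice (grey bars from 0), with *Ager*-deleted mice as circles and controls as squares. *Slc6a11* (65.4), *Gabbr1* (63.1), *Slc6a5* (48.0) and *Glrb* (41.1) lead, and *Gabrd* (0.221) is lowest.

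The order of levels per length over all mice ran from *Slc6a11*, *Gabbr1*, *Slc6a5* and *Glrb* through *Slc32a1* (35.4), *Glra1* (32.8) and *Gabra3* (28.7) down to *Gabre* (0.649), *Glra4* (0.517) and *Gabrd* (0.221). The leading pairs of neighbours in this order did not differ beyond their spread: *Slc6a11* was 60.6 ± 4.71 and *Gabbr1* 62.4 ± 1.73 CPM per kb in the controls, and *Slc6a5* was 46.5 ± 6.17 and *Glrb* 43.3 ± 4.32 (SD, n = 4 each). Genes of glycine transmission thus stood beside those of GABA at the top, with *Slc6a5* and *Glrb* above *Gad1* (22.2) and *Gad2* (20.7).

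Ratios within a library compared the roles directly. *Gad1* over *Gad2* was 0.51 ± 0.11 on the log2 scale in the *Ager*-deleted mice and 0.47 ± 0.11 in the controls (SD, n = 4 and 4, exact two-sided permutation test, p = 0.714). *Slc6a5* over *Slc32a1*, glycinergic over all inhibitory terminals, was 1.75 ± 0.24 and 1.81 ± 0.11 (p = 0.657, exact permutation test), and *Slc6a5* over *Slc6a9*, neuronal over glial glycine transport, was 1.52 ± 0.35 and 1.49 ± 0.22 (p = 0.857, exact permutation test). *Glra1* over *Glra2*, adult over embryonic glycine receptor, was 2.95 ± 0.34 and 2.74 ± 0.17 (p = 0.371, exact permutation test). After adjustment over the 4 ratios every p was 0.857, and each difference was smaller than the spread between the *Ager*-deleted mice.

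The genes of the set tended to be high or low in the same mice. E5248 was the highest of the 8 mice for 15 of the 26 genes, 10 of GABA and 5 of glycine, whereas it was the highest for 17.3% of all genes tested. E5231 was the lowest for 9 and E1776 for 7, against 15.7% and 14.9% of all genes. All 3 are *Ager*-deleted mice, and the neuron marker sum followed the same order at the ends, with 4757 CPM in E5248, 3525 CPM in E5231 and 3845 CPM in E1776, and 3934 to 4527 CPM in the controls. *Snap25* was the largest part of that sum (1783, 1160 and 1247 CPM). *Snap25*, *Syt1*, *Nefl*, *Map2* and *Eno2* were highest of these mice in E5248, but not every neuron marker was. *Stmn2* was higher in E5231 (276 CPM) than in E5248 (272 CPM), and *Rbfox3* in E1776 (115 CPM) than in E5248 (114 CPM). In the same order of mice (E5248, E5231, E1776), the sum of 5 Schwann cell markers was 1131, 498 and 396 CPM and that of the lumbar *Hox* genes 136, 104 and 106 CPM. The sums of astrocyte markers (11428, 15533 and 16592 CPM) and microglia markers (725, 1035 and 1000.2 CPM) ran the other way, but not every marker in them did. *Gfap* made up most of the astrocyte sum (6643, 10661 and 10908 CPM). *Slc1a2*, *Slc1a3* and *Gja1* were higher in E5248 (2390, 249 and 468 CPM) than in E5231 (2205, 244 and 422 CPM). Of the microglia markers, *P2ry12* was higher in E5248 (27.8 CPM) than in E1776 (24.2 CPM). The part of these markers in the pattern was not tested. The summed level of 6 transcription factors of inhibitory interneurons did not follow it, at 60.9 CPM in E5248, 62.9 CPM in E5231 and 59.7 CPM in E1776. Among these factors, *Lhx1* (7.45, 5.93 and 6.58 CPM) and *Pax8* (12.4, 11.9 and 10.3 CPM) were highest of the 8 mice in E5248. *Pax2*, *Lhx5*, *Gbx1* and *Tfap2b* were not. The coefficient of variation was larger among the *Ager*-deleted mice than among the controls for 25 of the 26 genes, all but *Glra4*, with medians of 15.9% and 7.92%. Over all genes tested it was larger for 63.5%, with medians of 12.2% and 9.14%, and since the genes share the same mice these counts are a description without a test.

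**Figure D5:**
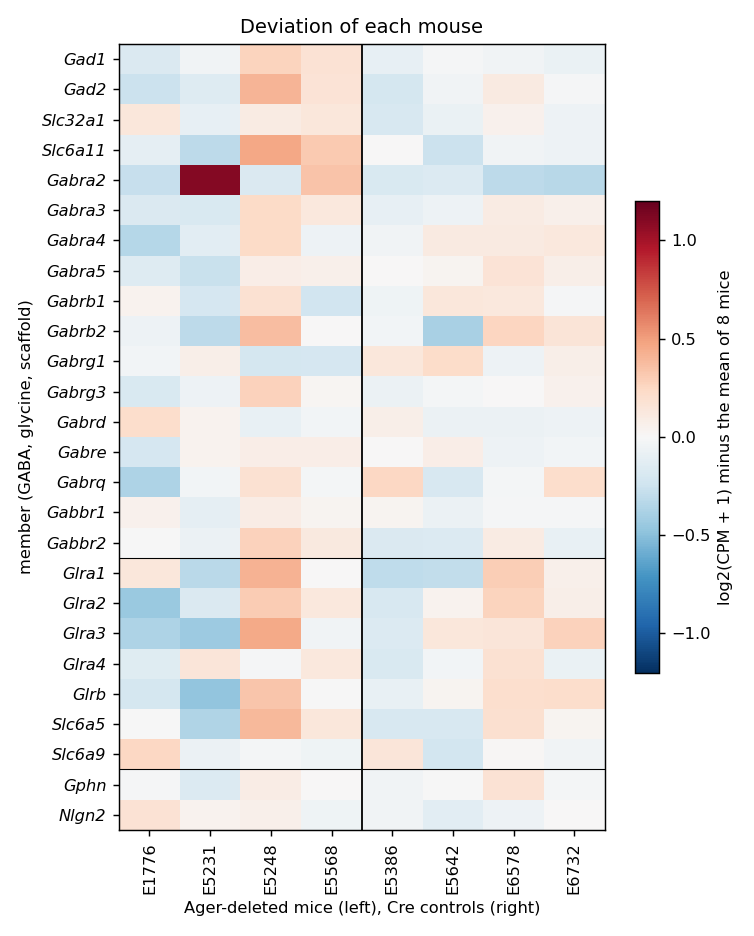
Deviation of each mouse (columns, *Ager*-deleted left of the line) from the mean of 8 mice for the 26 tested genes (rows), as log2(CPM + 1) on a colour scale from blue (below the mean) to red (above it). E5248 is red for most genes and E5231 blue for many, with *Gabra2* in E5231, at 1.10, as the darkest cell.

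Further genes of inhibitory synapses were examined as a list of 46, among them other receptor subunits, the chloride transporters, receptor traffic and anchoring proteins, GABA breakdown and the glycine cleavage system. Of these, 43 were tested (*Gabrp*, *Gabrr1* and *Gabrr3* had at most 1, 4 and 3 counts), and 0 were called by edgeR's exact test (0.0719% of all genes) or by its quasi-likelihood test. The median log2 fold change was 0.01, with 24 above and 19 below 0. An unadjusted p under 0.05 was reached by 2 with the exact and 3 with the quasi-likelihood test, against 4.26% and 6.71% of all genes. The third in the quasi-likelihood test, named here after its values were seen, was *Shmt2*, a mitochondrial enzyme that makes glycine from serine (log2 fold change 0.14 ± 0.064, SE, unadjusted p = 0.0479 and adjusted p = 0.742, edgeR's quasi-likelihood test).

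*Lhfpl4*, which brings GABA-A receptors to the synapse through neuroligin 2, measured 86.7, 81.3, 86.6 and 91.4 CPM in the *Ager*-deleted mice and 74.7, 77.1, 80.3 and 77.9 CPM in the controls. Every *Ager*-deleted mouse lay above every control, with a log2 fold change of 0.16 ± 0.055 (SE, unadjusted p = 0.0481 and adjusted p = 1, edgeR's exact test). *Dld*, the lipoamide dehydrogenase that the glycine cleavage system shares with other mitochondrial complexes, measured 109, 110.1, 122 and 122 CPM against 139, 129.8, 136 and 129.8 CPM. Here every *Ager*-deleted mouse lay below every control, and *Dld* had a log2 fold change of -0.21 ± 0.059 (SE, unadjusted p = 0.0103 and adjusted p = 0.744, edgeR's exact test). These were the 2 of 43 genes without overlap between genotypes, where 3.88% of all genes had none. *Slc12a5* (KCC2, the potassium chloride cotransporter that keeps chloride low in neurons) was 511 ± 60.2 CPM and 466 ± 29.0 CPM (SD, n = 4 and 4), with a log2 fold change of 0.13 (adjusted p = 1, edgeR's exact test).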

How the data were processed

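Lumbar spinal cord RNA of 8 male mice was sequenced with a stranded kit. The authors trimmed reads (Trimmomatic 0.36), aligned them to mm10 with STAR 2.7.3a and summed read pairs per gene with featureCounts (Subread 1.6.3), per the methods and the submitters' processing notes, and deposited raw counts. The strand setting is not stated. They also deposited log2 TMM-normalized CPM, used here only as a check: recomputing them from the counts gave values within 4.78e-06. Columns were matched to mice by ID. No 2 mice shared a library (lowest chi-square per degree of freedom over 28 pairs, 17.4).

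Genes that passed filterByExpr (minimum 10 counts) were TMM-normalized and compared with the exact test of edgeR 4.0.16 in R 4.3.3, as the study's methods name it, with Benjamini-Hochberg adjustment over 19470 genes and a threshold of 0.05. At this threshold 14 of all genes tested were called, fewer than the study reports with the test of the same name. The difference was not examined. Standard errors and 95% intervals are from the quasi-likelihood fit. CPM per mouse are TMM-normalized, and log2(CPM + 1) was compared by exact two-sided permutation over 70 assignments. Tests were first run on simulated data. Positions and exon lengths are from GENCODE on GRCm38, matched by symbol, and promoters from RefSeq.

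The genes described and all lists were chosen with earlier results of these data known. Values in every mouse are given for genes with an unadjusted p under 0.05 or no overlap, and for the highest per length in each role; other genes, in ranges. Of the 46 further genes, those with an unadjusted p under 0.05 in the exact test and *Slc12a5* are given by the rule, and 1 gene of the rule is not reported here. The untested genes and mice or human data outside this comparison are not analysed here. Alternatives were other normalizations, filters, dispersions and tests (DESeq2 1.42.0, limma-voom in limma 3.58.1), a skeletal muscle covariate, other pseudocounts and leaving out mice.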

Additional observations from a re-analysis of the deposited data

Results flagged for a closer look

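In groups of 4 mice, a mouse was singled out where its gap to the nearest other took up more of the range of its group than Dixon's critical value at the 95% level allows, which chance gives in about 1 in 20 groups. This held for 6 of 52 pairs of gene and genotype. The rule was not run over all genes tested, so whether this count is unusual for these libraries was not tested. Among the *Ager*-deleted mice, *Slc32a1* was lowest in E5231 (91.9 CPM), *Gabre* was lowest in E1776 (2.54 CPM) and *Slc6a9* was highest in E1776 (143 CPM). Among the controls, *Gabra4* was lowest (16.7 CPM) and *Gabrd* highest (0.711 CPM) in E5386, and *Gphn* was highest in E6578 (78.9 CPM). *Gabra2* in E5231 did not meet this rule, because E5568 lay between it and the other mice.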

How the results depend on the processing

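Under 20 alternatives (RLE, upper quartile or library size scaling, 2 other filters, the quasi-likelihood test, DESeq2, limma-voom, other dispersions, a skeletal muscle covariate, an adjusted p of 0.10, each mouse left out and both muscle-rich controls left out), 0 of the tested genes were called. The lowest adjusted p was 0.310 among the GABA genes, 0.555 among the glycine genes, 0.777 for the scaffold genes and 0.0530 among the further genes of inhibitory synapses. Of 519 fold changes, 482 kept their sign, and 11 of the 26 genes changed sign under at least 1 alternative. The median log2 fold change ranged from -0.04 to 0.07 for the GABA genes and from -0.11 to 0.08 for the glycine genes, against -0.02 to 0.03 for all genes. *Gabra2* ranged from 0.24, without E5231, to 0.78, with an unadjusted p under 0.05 in 13 of 20 and an adjusted p of 0.310 to 1; it was 0.68 without E5386 and E5642. Other pseudocounts left the permutation p of *Gabra2* at 0.143. No paired analysis was made, because the labels name mice by ID and give no pairing between mice of different genotype.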
